A study of Leymus chinensis with 14 samples.

Results

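The aquaporins read here are the loci of a sheepgrass (Leymus chinensis) leaf transcriptome that hold at least 1 transcript whose best Swiss-Prot protein carries Aquaporin in its first full name. They number 9 of the 29563 loci in the deposited table, with 27 aquaporin transcripts among them, and loci whose best hit in the wider protein database is fungal were left out. Sheepgrass is a perennial forage grass, and leaf RNA was sequenced in 14 libraries in 5 groups to look for regulators of the response to salt and shade. The filter on low values asked for 1 unit or more in 2 or more libraries, and 7 of the 9 loci passed it, as did 20375 of 28595 loci in all.

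The groups were 2 libraries of plants at low light with high salt, 3 of a low-light check, 3 of a normal-light check, 3 of plants at normal light with low salt and 3 at normal light with high salt. The check is labelled ck with a 0 in the salt place of the library name, and is read here as plants without added salt. All plants were grown on Murashige and Skoog medium at 0.5 strength and had their leaves taken at 3 weeks of age. The labels give no genotype other than the library name, no light level and no salt concentration, and the extraction text speaks of rice leaves. The samples are called replicates with no word on whether each came from its own plant. The p-values therefore speak only of the spread among these samples, and that spread may be technical.

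Aquaporins are membrane channels of the major intrinsic protein family that let water, and in some subfamilies small uncharged solutes, cross a membrane along its gradient. In plants the plasma membrane intrinsic proteins (PIPs) carry most of the water flow into and out of cells, the tonoplast intrinsic proteins (TIPs) sit in the vacuolar membrane, the nodulin 26-like intrinsic proteins (NIPs) pass silicic acid, boric acid or other small solutes, and the small basic intrinsic proteins (SIPs) were placed in the endoplasmic reticulum in Arabidopsis. In leaves, PIP transcript levels are known to vary with light and with the water status of the plant.

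The 9 loci were named PIP2-1 (g23268), PIP2-2 (g84309), PIP2-7 (g147321), NIP2-2 (g8351), NIP1-3 (g26871 and g24881), NIP3-1 (g2617), SIP1-1 (g1573) and TIP4-2 (g91512), after the rice or maize protein they matched best. No locus among them was named for the PIP1 group. The table ends where its file format allows no more rows and so holds part of the assembly, and loci outside it were not analysed here. All 27 aquaporin transcripts carry the Pfam domain of the major intrinsic proteins. Outside these loci 1 transcript carries that domain, in a locus with a fungal best hit. Near-identical copies of a gene may share reads, so a locus value may hold reads of a close relative, which was not tested. The 2 loci named NIP1-3 were not compared in sequence. Their identity to the Swiss-Prot match was 76.6% at g24881 and 86.12% and 86.62% at g26871.

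The predicted proteins differ in how complete they look. At the PIP2-1 locus 6 of 12 transcripts have 6 predicted membrane segments, the number a whole aquaporin has, with 91.38% to 92.07% identity to the Swiss-Prot match. Another 3 have 4 segments, at 92.27% identity. The last 3 have no predicted segment, matched PIP2-3 at 100% identity and had 48.91% identity to their best hit in the wider database. Of the 5 aquaporin transcripts of NIP2-2, 3 have 6 segments, 1 has 5 and 1 has 3, with identities of 73.15% to 88.79%. The NIP1-3 transcript of g24881, the 3 NIP3-1 transcripts and the SIP1-1 transcript have 6 segments each, the NIP1-3 transcripts of g26871 have 4 and 3, and the TIP4-2 transcript has 3 at 68.66% identity. The transcripts named PIP2-2 and PIP2-7 have 5 and 2.

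In 2 loci the aquaporin is joined in the table to transcripts of other genes. At g2617 only 3 of 12 transcripts are NIP3-1, named for a boric acid channel in rice, and they hold 2.16% of the locus abundance. Of the rest, 8 carry the names of an asparaginase, a geraniol 8-hydroxylase or a Flowering locus K protein and 1 has no Swiss-Prot name. At g1573 a single transcript of 8 is SIP1-1, with 28.5% of the abundance, and 6 are named for a double-stranded RNA-binding protein. Counts of loci and the plot of log2 differences use locus sums, also for these loci, and the library values given for SIP1-1 and NIP3-1 are those of their aquaporin transcripts alone. At NIP2-2, 5 of 7 transcripts are named as aquaporin and hold 52.8% of the abundance, and the other 2 have no Swiss-Prot name.

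Values are the deposited abundances, whose unit is not named and which are of a kind with TPM or FPKM. No read counts came with them, so the depth behind a value is unknown and no counting interval can be given. The summed abundance was 470162 to 581690 per library, and replicates of a group correlated at 0.846 to 0.953 across loci on a log scale, lowest within the low-light check. Tests ran on log2(value + 1) of locus sums with limma over all 20375 loci, which understates the change of scarce loci, and a locus was called at an adjusted p below 0.05. In these bulk leaf samples, fewer cells of a type and less RNA per cell cannot be told apart. The median of all loci lay 0.34 above 0 on the log2 scale for low light against normal light and 0.29 above 0 for high salt at normal light, so a difference of 0 is slightly below the typical locus. A median-of-ratios scaling brings both medians to 0.02 and 0.03.

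Most of the family's abundance lay in a pair of loci, PIP2-1, named for a water channel, and NIP2-2, named for a silicon channel, and its total was lower at low light than at normal light. The aquaporin transcripts summed to 77.3 and 92.1 units at low light with high salt and to 90.1, 93.9 and 100 in the low-light check. The normal-light libraries gave 155, 187 and 145 in the check, 145, 222 and 189 with low salt, and 184, 261 and 195 with high salt. Every low-light library lay below every normal-light library.

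**Figure D1:**
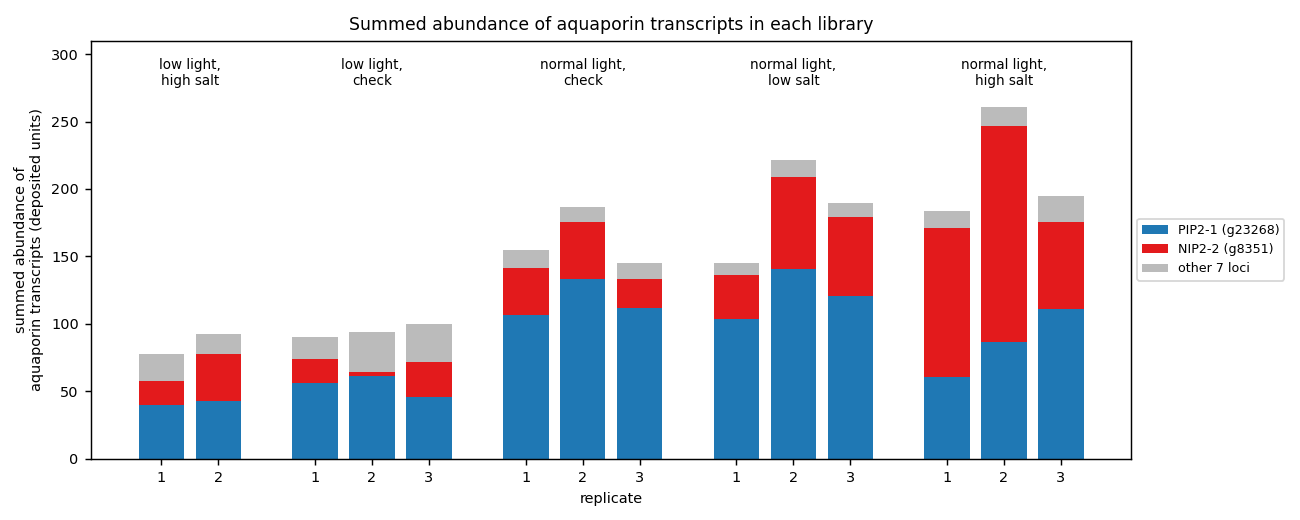
Summed abundance of aquaporin transcripts (vertical axis, deposited units) in each of 14 libraries, with PIP2-1 in blue, NIP2-2 in red and the other 7 loci in grey. Totals run from 77.3 to 100 at low light and from 145 to 261 at normal light, and the red part is largest in high-salt replicates 1 and 2 at normal light.

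The make-up of the total also differed between groups. PIP2-1 held 51.2% and 46.4% of the family's abundance at low light with high salt and 62.3%, 65.5% and 45.3% in the low-light check. In the normal-light check it held 68.9%, 71.5% and 77.1%, with low salt 71.4%, 63.4% and 63.6%, and with high salt 33.1%, 33.2% and 56.8%. By aquaporin transcripts, NIP2-2 exceeded PIP2-1 in 2 of 3 normal-light high-salt libraries, replicates 1 and 2. In every other library of all 5 groups PIP2-1 exceeded NIP2-2. The ratio of NIP2-2 aquaporin transcripts to PIP2-1, which no scaling of a library can move, was 1.81, 1.85 and 0.586 with high salt at normal light, against 0.324, 0.314 and 0.195 in the check. It was 0.443 and 0.817 at low light with high salt, against 0.314, 0.0452 and 0.578 in the low-light check. At normal light the high-salt and check ratios did not overlap, and at low light they did. Of single loci 30.5% did not overlap in the normal-light comparison, and ratios of other pairs of loci were not taken. Whether the salt difference of the ratio changes with light was not tested.

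Of the 7 tested aquaporin loci, low light called 2 against the normal-light check, PIP2-1 lower and NIP1-3 g26871 higher, where 15.1% of all tested loci were called, 10.8% up and 4.33% down. Median-of-ratios scaling called 11.0% of all loci, and 2 of the 7 again, but the sum of g2617 in place of g26871, and the NIP3-1 transcripts of g2617 alone had a log2 difference of -0.69 there, with a limma adjusted p of 0.40. Low light with high salt called 1 of 7 against the normal-light check, PIP2-1 lower, where 8.63% of all loci were called, 6.60% higher and 2.03% lower, and 6.76% after scaling. High salt at normal light called none of 7 with limma, where 4.01% of all loci were called, 3.03% higher, and 2.89% after scaling. At an unadjusted p below 0.05 there were 3 locus sums of 7, or 2 with aquaporin transcripts alone, and 23.9% of all loci. Whether the family's share stands apart from these backgrounds was not tested.

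The other comparisons called none of the 7 with limma either. Of all loci 0.0883% were called for low salt, 0.0491% for high against low salt, 0.564% for high salt at low light, 0.584% for low light among high-salt plants and 0.206% for the interaction. At an unadjusted p below 0.05 there was none of 7 for low salt, where 12.1% of all loci passed, and none for high salt at low light, where 7.93% did. There were 2 locus sums for high against low salt, with 10.9% of all loci, 2 for low light among high-salt plants, with 9.71%, and 2 for the interaction, with 14.5%. With aquaporin transcripts alone these 3 counts were 1, 2 and 1.

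By locus sum the libraries of the groups did not overlap at 5 of 7 loci for low light, where 34.2% of all loci did not, and at 3 of 7 for the combined treatment, with 52.4% of all loci. They did not overlap at 3 of 7 for high salt at normal light, with 30.5%, at 2 of 7 for low salt, with 20.1%, and at 1 of 7 for high against low salt, with 15.2%. For high salt at low light it was 2 of 7, with 20% of all loci, and for low light among high-salt plants 3 of 7, with 27.3%. With aquaporin transcripts alone the counts were 4 for low light, 2 for the combined treatment, 1 for high salt at normal light, 1 for low salt, 0 for high against low salt, 2 for high salt at low light and 2 for low light among high-salt plants.

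**Figure D2:**
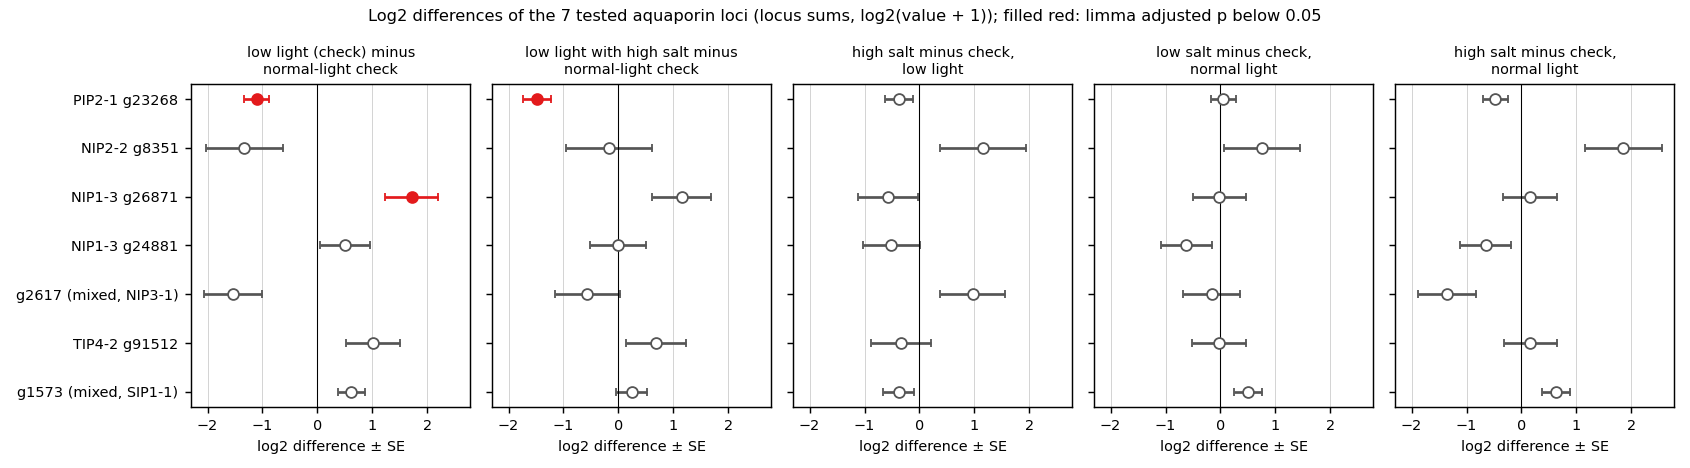
Log2 differences with SE (horizontal axis) of the locus sums of the 7 tested aquaporin loci in 5 comparisons, with filled red points for a limma adjusted p below 0.05. PIP2-1 is red at -1.10 for low light and -1.48 for the combined treatment, NIP1-3 g26871 is red at 1.72 for low light, and NIP2-2 is open at 1.86 for high salt at normal light.

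PIP2-1, a plasma membrane water channel, was the most abundant locus made up of aquaporin transcripts alone, with a mean of 87.1 units over the 14 libraries, at the 95.7 percentile of tested loci. It measured 39.6 and 42.7 at low light with high salt, against 56.1, 61.5 and 45.3 in the low-light check. Under normal light it stood at 107, 133 and 112 in the check, 103, 141 and 120 with low salt, and 60.8, 86.6 and 111 with high salt. All 5 low-light libraries lay below all 6 libraries of the normal-light check and low-salt groups, and the lowest high-salt library at normal light, 60.8, lay just under the highest low-light check library.

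PIP2-1 fell at low light. It averaged 54.3 ± 8.24 units in the low-light check and 117 ± 14.3 in the normal-light check (SD, n = 3 each), 0.463 times as much. The log2 difference was -1.10 (SE 0.23), with a limma adjusted p of 0.0093. With high salt added at low light it averaged 41.2 ± 2.21 (SD, n = 2), 0.351 times the normal-light check, a log2 difference of -1.48 (SE 0.25) with a limma adjusted p of 0.0064. After median-of-ratios scaling the low-light and combined log2 differences were larger in size, -1.57 and -1.99. The combined call rests on both low-light high-salt libraries: without replicate 1 the limma adjusted p was 0.10 and without replicate 2 it was 0.052.

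High salt gave no call for PIP2-1. At normal light the high-salt libraries averaged 86.1 ± 25.0 units (SD, n = 3) and overlapped the check, with a log2 difference of -0.48 (SE 0.23) and a limma adjusted p of 0.23. After median-of-ratios scaling it was -0.86, with a limma adjusted p of 0.063. Without high-salt replicate 1 it was -0.25 and without high-salt replicate 3 it was -0.68, with limma adjusted p of 0.60 and 0.10. Low salt averaged 122 ± 18.6, a log2 difference of 0.05, which turned to -0.16 after median-of-ratios scaling. At low light the 2 high-salt libraries lay below the 3 check libraries without overlap, but the log2 difference of -0.38 had a limma adjusted p of 0.84. The order of the PIP2-1 levels was low salt, normal-light check, normal-light high salt, low-light check and low light with high salt. Neighbours in that order overlapped, apart from the last pair.

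Among high-salt plants, low light went with 0.478 times as much PIP2-1 as normal light, a log2 difference of -1.01 (SE 0.25) with no overlap. It was not called, at a limma adjusted p of 0.15 in a comparison where 0.584% of all loci were called. The test of the difference itself, whether the salt difference changes with light, gave 0.10 (SE 0.34) on the log2 scale and a limma adjusted p of 0.92, so the low-light differences with and without salt were not told apart. That value changed sign with equal library totals, to -0.079.

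The 12 transcripts of PIP2-1 shared its direction at low light. The mean of all 12 was lower in the low-light check than in the normal-light check, 9 of them without overlap. At low light with high salt all 12 lay below the normal-light check without overlap. Of all loci 34.2% and 52.4% did not overlap in these comparisons, and the share over all transcripts was not taken. The 6 transcripts with 6 segments summed to 25.1 ± 1.07 units at low light with high salt (SD, n = 2), 31.4 ± 5.17 in the low-light check and 67.5 ± 10.1 in the normal-light check (SD, n = 3 each). The 3 transcripts with no predicted segment summed to 6.97 ± 0.298, 10.8 ± 5.33 and 26.4 ± 7.45 in the same order. Both the complete and the segment-less forms had lower means at low light. With high salt at normal light the mean of all 12 was lower than in the check. For 1 of them alone the groups did not overlap, in a comparison where 30.5% of all loci did not. These transcripts share a locus, so they are not independent readings.

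**Figure D3:**
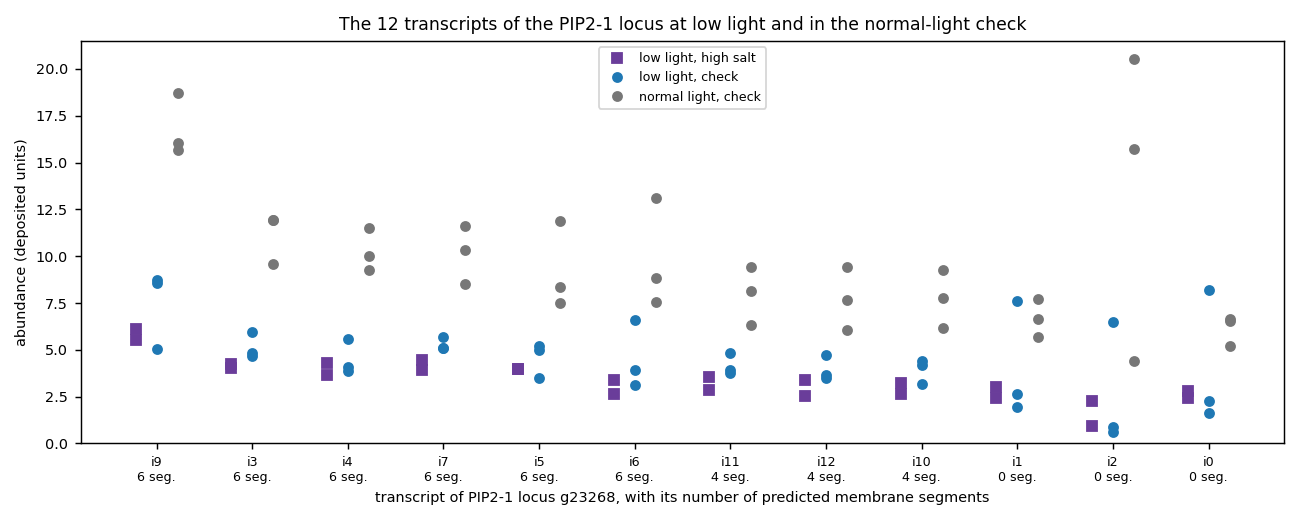
Abundance (vertical axis, deposited units) of each of the 12 transcripts of the PIP2-1 locus, with the number of predicted membrane segments under each, in libraries of low light with high salt (squares), the low-light check (blue circles) and the normal-light check (grey circles). For all 12 transcripts the 2 squares lie below the 3 grey circles, and the low-light check does so for 9.

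The other PIP2 loci were close to absent. PIP2-2 was listed at 0 in 12 of 14 libraries and stood at 0.296 in normal-light high-salt replicate 1 and 0.0433 in low-salt replicate 3. PIP2-7 was listed at 0 in the same 12 libraries and stood at 0.228 and 0.144 in the same pair. Neither passed the filter on low values, and neither was tested.

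NIP2-2 is named for the rice channel of that name, which passes silicic acid and sits beside the xylem in leaves. Its locus sum averaged 93.5 units, at the 96.0 percentile of tested loci, and its aquaporin transcripts alone averaged 49.4. The locus measured 31.2 and 72.1 at low light with high salt, against 34.9, 5.09 and 45.9 in the low-light check. Normal-light values were 63.1, 64.0 and 38.1 in the check, 56.2, 121 and 112 with low salt, and 191, 364 and 110 with high salt. The 3 high-salt libraries at normal light were above all 3 check libraries there and spread widely among themselves. Low-light check replicate 2 stood far below the other libraries.

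High salt at normal light averaged 222 ± 130 units of NIP2-2 and the check 55.1 ± 14.7 (SD, n = 3 each), a ratio of 4.02. The log2 difference was 1.86 (SE 0.70), the largest in size of the 7 tested aquaporins in that comparison, but it missed the threshold with a limma adjusted p of 0.14. Median-of-ratios scaling gave a log2 difference of 1.47, with a limma adjusted p of 0.26. With single libraries left out the difference ran from 1.42 to 2.28. Of these fits only the one without low-light check replicate 2, a library of neither group, passed, with a limma adjusted p of 0.048. Of the 5 aquaporin transcripts all 5 had a higher mean with high salt than in the check. For 3 the groups did not overlap, in a comparison where 30.5% of all loci did not. Restricted to these transcripts the log2 difference was 1.70, with a limma adjusted p of 0.13. With that scaling as well it was 1.32, with a limma adjusted p of 0.26.

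At low light the means of NIP2-2 stood in the same direction, and no test told them apart. The locus averaged 51.7 ± 28.9 units with high salt (SD, n = 2) and 28.6 ± 21.1 in the low-light check (SD, n = 3), with overlap and a limma adjusted p of 0.84. The log2 difference was 1.16. It was 0.24 without low-light check replicate 2, 1.75 without low-light high-salt replicate 1 and 0.57 without low-light high-salt replicate 2. Among high-salt plants, low light held 0.233 times as much NIP2-2 as normal light. The groups did not overlap in the locus sum or in any of the 5 aquaporin transcripts, where 27.3% of all loci did not overlap. The log2 difference of -2.03 had a limma adjusted p of 0.41. In the low-light check against the normal-light check the log2 difference was -1.33, with a limma adjusted p of 0.21, and without low-light check replicate 2 it was -0.41, with 0.62. The interaction was -0.70 (SE 1.04), with a limma adjusted p of 0.79. In the order of its levels, normal-light high salt, low salt, normal-light check, low light with high salt and low-light check, every pair of neighbours overlapped.

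The scarce NIP1-3 locus g26871 stood the other way at low light. It measured 5.62 and 2.16 units at low light with high salt, against 3.77, 8.17 and 6.16 in the low-light check. With normal light it stood at 0.372, 2.12 and 1.05 in the check, 0.652, 1.46 and 1.04 with low salt, and 0.477, 0.759 and 3.66 with high salt. All 3 low-light check libraries lay above all 3 normal-light check libraries, and high-salt replicate 3 stood apart from its group at normal light.

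NIP1-3 g26871 rose at low light to 6.03 ± 2.21 units in the low-light check, against 1.18 ± 0.882 in the normal-light check (SD, n = 3 each), 5.11 times as much. The log2 difference was 1.72 (SE 0.48), with a limma adjusted p of 0.034. The call was lost after median-of-ratios scaling, where the log2 difference was 1.43 with a limma adjusted p of 0.074, and when only the 2 groups were fitted, with 0.053. It was lost too without normal-light check replicate 1 or 3 and without low-light check replicate 2 or 3, with limma adjusted p up to 0.14. At low light with high salt it averaged 3.89 ± 2.45 (SD, n = 2), a log2 difference of 1.15 from the normal-light check with a limma adjusted p of 0.19. These groups were barely apart, with a lowest value of 2.16 against a highest check value of 2.12. In this comparison 52.4% of all loci did not overlap.

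The second NIP1-3 locus, g24881, gave no call. It measured 3.05 and 4.75 units at low light with high salt and 2.55, 7.56 and 9.73 in the low-light check. Levels at normal light were 4.02, 2.83 and 4.94 in the check, 2.27, 1.66 and 2.60 with low salt, and 0.783, 1.96 and 4.57 with high salt. Both check groups overlapped, and low salt was the one group whose libraries all lay below the normal-light check, with a log2 difference of -0.62 and a limma adjusted p of 0.65.

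TIP4-2 was the single locus here named for a vacuolar membrane aquaporin. It measured 5.92 and 2.30 units at low light with high salt and 4.43, 8.06 and 3.40 in the low-light check. Its normal-light values were 2.54, 1.54 and 1.95 in the check, 2.26, 2.16 and 1.45 with low salt, and 1.29, 1.08 and 6.82 with high salt. The low-light check lay above the normal-light check without overlap, with a log2 difference of 1.01 (SE 0.49) and a limma adjusted p of 0.18. Median-of-ratios scaling gave 0.66, with a limma adjusted p of 0.44. As at NIP1-3 g26871, normal-light high-salt replicate 3 stood well above the other 2 libraries of its group.

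The SIP1-1 transcript measured 4.33 and 4.48 units at low light with high salt and 4.87, 5.39 and 8.06 in the low-light check. The normal-light libraries gave 3.10, 4.53 and 2.17 in the check, 3.45, 7.28 and 4.57 with low salt, and 7.68, 7.59 and 3.84 with high salt. Its log2 difference was 0.75 for low light against the normal-light check and 0.78 for high salt at normal light, with limma adjusted p of 0.14 and 0.18. After median-of-ratios scaling these were 0.37 and 0.47, with limma adjusted p of 0.55 and 0.47. The interaction of the transcript was -1.15, with a limma adjusted p of 0.32.

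The NIP3-1 transcripts summed to 1.26 and 0.755 units at low light with high salt and to 0.769, 0.463 and 1.26 in the low-light check. In normal light they came to 3.59, 0.404 and 1.21 in the check, 0.479, 0.619 and 0.577 with low salt, and 1.65, 2.68 and 0.499 with high salt. The groups overlapped at low light and with high salt, with log2 differences of -0.43 and 0.01. The locus sum of g2617, nearly all of it from the other genes joined there, had differences of -1.54 and -1.36 in these comparisons, so the sum says little about the aquaporin.

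**Figure D4:**
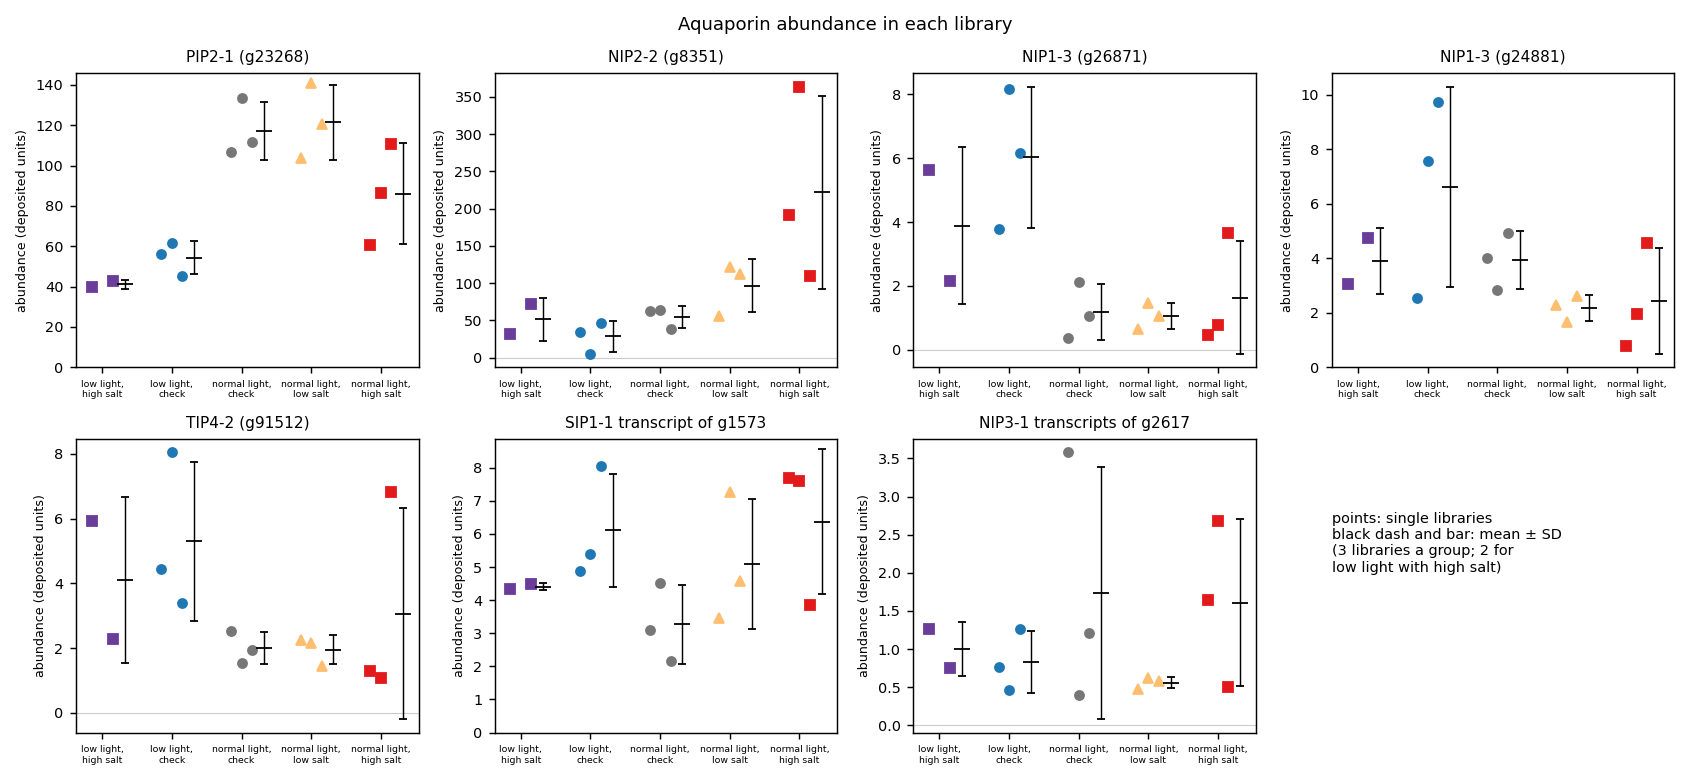
Abundance (vertical axes, deposited units) of the 7 tested aquaporins in each library, 1 panel each (aquaporin transcripts alone for SIP1-1 and NIP3-1), with points for libraries and a black dash and bar for the group mean and SD. PIP2-1 is lowest in the 2 low-light groups, NIP2-2 is highest in the normal-light high-salt group with libraries from 110 to 364, and NIP1-3 g26871 is highest in the low-light check.

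Mesophyll markers moved with the low-light comparison and their part in the aquaporin values was not tested. They were photosynthesis loci, named for ribulose bisphosphate carboxylase small chain or activase, chlorophyll a-b binding protein or phosphoribulokinase. For them too, fewer mesophyll cells and less of these RNAs per cell cannot be told apart. Of 51 tested loci among 60 mesophyll markers, none was higher and 7 were lower in the low-light check than in the normal-light check, and their median log2 difference was -0.81. After median-of-ratios scaling 18 were lower. In the combined treatment 6 were lower, 17 after scaling, and with high salt at normal light 2 were lower, 5 after scaling. Their summed abundance ran from 31303 to 58573 at low light with high salt, from 41757 to 46262 in the low-light check and from 63463 to 93043 in the normal-light check. With low salt it ran from 40902 to 65398 and with high salt at normal light from 40852 to 60957. Of 16 vascular markers none was called at low light and 2, the laccases 13 and 10, were higher with high salt at normal light. The median log2 difference of the 16 there was 0.11, against 0.29 for all loci. The most abundant of them, laccase 19 (g8675), measured 51.4, 30.8 and 25.5 units with high salt at normal light and 63.9, 48.2 and 68.5 in the check. The sums of the 16 ran from 156 to 419 with high salt and from 136 to 244 in the check. Dividing-cell markers gave 1 call, higher, at low light. No locus matched the guard-cell or root markers.

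The partners of the aquaporins were read from 8 lists of loci named for pumps, carriers, enzymes and trafficking proteins of the same membranes or solutes, and the share of all loci called in each comparison, given above, is their background too. Among 12 tested loci of aquaporin traffic and breakdown, 3 rose and none fell at low light, with a list median of 0.65 on the log2 scale against 0.34 for all loci. Syntaxin-132 (g20298), named for a membrane fusion protein of the plasma membrane, measured 38.0, 24.6 and 21.4 units in the low-light check and 0.897, 5.51 and 0.383 in the normal-light check. It rose by 3.45 on the log2 scale, with a limma adjusted p of 0.0025, and by 3.79 in the combined treatment, with 0.0039. Both calls held after median-of-ratios scaling. The vesicle proteins VAMP727 and VAMP725 rose by 0.74 and 0.84 at low light and were not called after scaling. RMA1 (g20595), a ubiquitin ligase whose pepper relative acts on a PIP2, rose by 1.16 with high salt at normal light with a limma adjusted p of 0.045, which became 0.17 after scaling.

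The vacuolar membrane, where TIPs sit, is energised by proton pumps. Of 19 tested pump loci 3 rose and none fell at low light, which became 1 higher and 1 lower after scaling, and the list median of 0.36 was close to the 0.34 of all loci. All 3 were proton-pumping pyrophosphatases. The leading one (g15564) measured 248, 262 and 137 units in the low-light check and 80.1, 55.6 and 55.5 in the normal-light check, and rose by 1.71 with a limma adjusted p of 0.0020. At the plasma membrane, where PIPs sit, 3 of 8 proton pump loci rose in the combined treatment, of which 2 remained called after scaling. At low light alone none was called, with a list median of 0.67 against 0.34 for all loci. With high salt at normal light 1 rose, a call lost after scaling. The 3 were scarce: g17636 measured 5.04 and 2.85 units at low light with high salt and 0.0861, 0.408 and 0.204 in the normal-light check. All 3 are named Plasma membrane ATPase 1 and had similar values in each library. Whether they share reads was not tested, so they may not be independent readings. The most abundant pump locus of this list, g9549, was not called. It measured 424, 332 and 298 units in the low-light check and 197, 280 and 143 in the normal-light check. These groups did not overlap, as was so for 34.2% of all loci.

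Among 8 silicon and boron transporter loci, the Boron transporter 1 locus g17371 rose at low light. It measured 6.17, 2.68 and 4.35 units in the low-light check and 0.427, 0.501 and 0.309 in the normal-light check, a log2 difference of 1.88 with a limma adjusted p of 0.017, and 0.033 after scaling, where another locus of the list fell. The silicon efflux carrier LSI2 (g18141), which works with the silicon channels in grasses, was the most abundant of the list and was not called. It measured 174, 146 and 162 units with high salt at normal light, 163, 119 and 251 with low salt, and 109, 124 and 61.1 in the check. The high-salt libraries lay above the check libraries without overlap, in a comparison where 30.5% of all loci did not overlap. The low-salt libraries overlapped both groups.

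Carbonic anhydrases, which interconvert carbon dioxide and bicarbonate, gave no call among 5 tested loci in any of the 8 comparisons, although their median log2 difference was -1.56 at low light, against 0.34 for all loci. The most abundant, g98597, measured 167, 85.2 and 62.8 units in the low-light check and 238, 365 and 309 in the normal-light check. These groups did not overlap, as was so for 34.2% of all loci in this comparison. Of 3 SnRK2 kinase loci, a family that phosphorylates a PIP2 in Arabidopsis, SAPK5 (g21968) rose by 1.52 at low light with a limma adjusted p of 0.021, and was not called after scaling. Among 26 sodium, proton and potassium carriers 2 rose and 2 fell at low light, which became 1 higher and 3 lower under that scaling, led by a sodium/hydrogen exchanger 7 locus (g87056), which rose to 3.68, 6.87 and 4.14 units in the low-light check, against 0.658, 1.51 and 0.993 in the normal-light check. The potassium channel KOR1 (g82299) fell by 1.37 on the log2 scale. Among 20 sugar carrier loci 3 rose and 1 fell, or 1 and 1 after scaling, when SWEET4 (g24559) lost its call. The one that fell was SWEET2b (g89645), at 0.222, 0.248 and 0.137 units in the low-light check and 4.03, 35.7 and 30.9 in the normal-light check. That list also holds Protein SWEETIE, which matched by its letters and is no SWEET carrier. No locus of these lists was called for low salt, high against low salt, high salt at low light, low light among high-salt plants or the interaction.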

How the data were processed

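The authors deposited 1 table with an abundance signal for each assembled transcript in each library and database annotation. The unit of this deposited signal is not named. StringTie 1.3.0, HISAT2 2.0 and Bowtie 0.12.2 are named per the submitters' processing notes, and a mouse build, mm8, is named, with no role or order. The assembly and counting steps are not given in the sources used here. Of 65536 lines, 4 were broken, and 3 loci cut by its first or last row (17 transcripts) were not used. The remaining 65514 transcripts were summed to 29560 loci, and 965 loci with a fungal best hit were dropped. No sequence was printed, since the table holds none.

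Values entered limma 3.58.1 (R 4.3.3, eBayes with trend and robust options) as log2(value + 1) if a locus reached 1 unit in 2 or more libraries. A single model held all 14 libraries and 5 group means, with p-values adjusted by Benjamini-Hochberg over all tested loci within each of 8 comparisons. Python 3.11.15, pandas 2.3.3 and matplotlib 3.10.9 were used for the rest. The procedure was tested on simulated data. The members, lists, markers and tests were chosen with earlier results of these data known. Aquaporins with a call, among the 12 highest means, or with a log2 difference of at least 1 without overlap were named with all values. Of each list, up to 3 called loci a comparison and the most abundant locus were considered. Replicate numbers were not used to pair the samples. Same-numbered libraries of different groups had residual correlations of -0.17 to 0.15, with 1 of 26 pairs over 0.1. Differently numbered ones had -0.23 to 0.23, with 7 of 52 over 0.1. Residuals from means of 2 or 3 libraries depend on each other, so these values cannot settle whether samples were paired. Alternatives were median-of-ratios scaling, equal library totals, no filter, a mean of at least 5, a pseudocount of 0.1, only the groups compared, a replicate block, fungal-hit loci kept, aquaporin transcripts only, and each library left out.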

Additional observations from a re-analysis of the deposited data

Results flagged for a closer look

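Loci whose best database hit is a fungus, which were left out of the tests above, held a larger share of the abundance in every treated group than in the normal-light check. The median share was 0.328% at low light with high salt, 0.179% in the low-light check, 0.085% for low salt and 0.0934% for high salt under normal light, and all of these lie above the highest normal-light check library, 0.0415%. They were singled out as a signal outside the main measurement that stands above its level in the check libraries. The part of these loci in the aquaporin values was not tested. With 2 or 3 libraries a group, no single library was tested for standing apart from its group.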

How the results depend on the processing

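Low light called 2 aquaporin loci, and 1 when only the groups compared were fitted and 1 with aquaporin transcripts only after median-of-ratios scaling, an alternative added after seeing the data. Leaving out single libraries gave 1 to 3 calls for low light, 0 to 1 for the combined treatment and 0 to 1 for high salt at normal light. PIP2-1 at low light was called in 10 of 10 alternatives, with limma adjusted p of 0.0017 to 0.035, and in 14 of 14 fits with a library left out. The combined call held in 10 of 10 and 12 of 14. NIP1-3 g26871 was called in 6 of 9 and 10 of 14, and could not be fitted with a mean of at least 5. The cause of these changes was not tested.

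With a replicate block in the fit, low light called 2 aquaporin loci, the combined treatment 1 and the others 0, so the block changed no call. Signs turned for values that were not called. PIP2-1 with low salt was -0.16 after median-of-ratios scaling, with all transcripts and with aquaporin transcripts only, and -0.063 to 0.16 with libraries left out. The PIP2-1 interaction was -0.079 with equal library totals and -0.13 to 0.30 with libraries left out. The g2617 locus turned from its sum to the NIP3-1 transcripts, at 0.0123 for high salt at normal light and 0.65 for high against low salt, or 0.58 after scaling. The g2617 sum at low light passed the threshold after scaling, with a limma adjusted p of 0.034, and with a mean of at least 5, with 0.044. The sum of g1573, most of it not SIP1-1, did so with equal library totals, at 0.047, and the SIP1-1 transcript alone had 0.14 as deposited.

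Over all loci, low light put 2200 calls up and 883 down, against 740 up and 1474 down under median-of-ratios scaling. High salt at normal light put 617 up and 200 down, against 159 up and 425 down. The depth behind the values is unknown, so the scarce loci are the least certain.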

Other observations

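The loci whose pattern over the 14 libraries was most like an aquaporin's were taken by Pearson's r of log2(value + 1), as a description over libraries that share groups. For PIP2-1 they were an ent-isokaurene hydroxylase locus (g2200, r = 0.936), the chloroplast kinase ABC1K7 (g99981, r = 0.923) and phosphofructokinase 3 (g14374, r = 0.907). For NIP2-2 they were bHLH112 (g96049, r = 0.932), the kinase OSK1 (g95025, r = 0.916) and peroxidase 5 (g24433, r = 0.899). For TIP4-2 the 3 highest lay between 0.911 and 0.913, among them the chloroplast splicing factor CFM2 (g27574, r = 0.912). For the SIP1-1 transcript the highest was a V-type proton ATPase subunit a2 locus (g25527, r = 0.915).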
